A study of Harpegnathos saltator with 36 samples.

Results

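In the brains of the ant Harpegnathos saltator, 111 pairs of genes with consecutive ID numbers rose and fell together from one brain to the next. They hold 217 genes, because 5 genes stand in 2 pairs each, out of 7311 genes eligible for pairing and 18427 genes listed. The pairs were chosen by their measured values. A gene was eligible when its mean over the 18 brains was at least 10 CPM (counts per gene scaled to a common sum over all genes of the library), when it was not among the 150 genes with the highest means, and when its highest CPM was at most 10 times its lowest (with values under 0.1 CPM set to 0.1) in at least 1 siRNA group. Each gene's log2(CPM + 0.5) was fitted on the siRNA group and on the log2 sum of gene counts of the library, and what the fit left over is called the residual. A pair was kept when its ID numbers differed by 1 and its residuals had a Pearson r of at least 0.9 over the 18 brains. These r values therefore describe how the pairs were chosen and carry no test.

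The brains, taken without their optic lobes, came from workers on day 6 of a colony transition that had dueled for 3 days. Ants were housed in groups of 6. In each group 3 received Dicer-substrate siRNA against the corazonin receptor (CrzR siRNA) and 3 received the same kind of siRNA against GFP, which is of jellyfish origin and was the control target (GFP siRNA). Every ant was injected in the head with 0.5 µl of a 5 µM solution carrying a transfection reagent, and brains were collected 1 day later. There were 9 brains per siRNA, each a library of its own sequenced in 2 technical runs, which the count table adds together. Total counts per brain ran from 9741263 to 24166021 in CrzR siRNA brains and from 10208661 to 23693545 in GFP siRNA brains. No name or position is given for an ID in the files, and 0 of the 19198 row IDs were found among the 14329 entries of the assembly Hsal_v8.6 table. The knockdown and the cell types of the tissue were therefore not checked here, and no function is given for any gene.

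As background, ID numbers of gene models are often given in order along a scaffold, so consecutive numbers can mark neighbours in the genome. Neighbouring genes are known to vary together when they share a promoter region or a chromatin domain, when they are copies of each other, or when they are active in the same cells. A pair of gene models can also be parts of a single transcript that the annotation split, or can overlap and share reads. Which of these holds for a pair was not tested, since no positions, sequences or strands of the gene models were used here. The libraries kept strand information, per the labels' protocols. Whether the counting used strand is not given in the sources used here, so a pair of overlapping or near-identical gene models could hold the same reads.

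Consecutive ID numbers went with a larger share of tightly co-varying pairs than any other distance examined. Of 4556 eligible pairs whose numbers differed by 1, 111 had an r of at least 0.9, which is 2.44%. At differences of 2 to 10 the share lay between 0.330% and 0.933%, and over all 26721705 pairs of eligible genes it was 0.613%. The median r was 0.27 at a difference of 1, between 0.10 and 0.18 at differences of 2 to 10, and 0.11 over all pairs. The pairs of one distance share genes and all share the same 18 libraries, so these shares are given as a description.

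**Figure D1:**
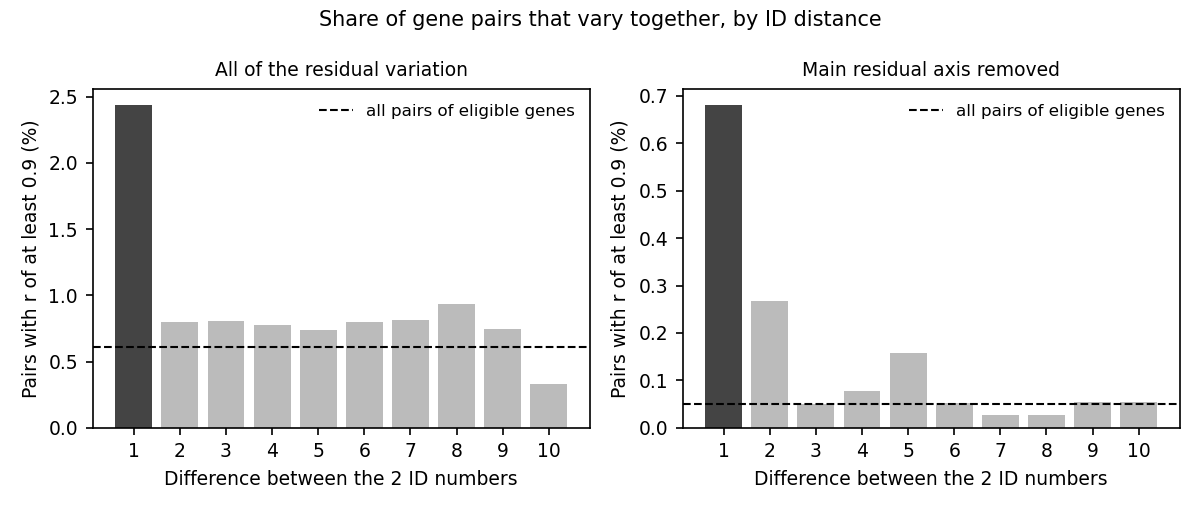
Share of pairs of eligible genes with a residual r of at least 0.9 (y axis, percent), by the difference between the ID numbers (x axis), for all of the residual variation (left) and after its main axis was removed (right). The dashed lines mark all pairs of eligible genes, at 0.613% on the left and 0.0499% on the right, and the dark bars at a difference of 1 reach 2.44% and 0.680%.

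Much of what the brains did beyond group and depth lay on a single axis. The first principal component of the residuals, called the main residual axis here, held 46.6% of their variance, and the second held 12.9%. Of the 217 genes, 160 (73.7%) correlated with this axis at an absolute r of at least 0.7, against 3141 of the 7311 eligible genes (43.0%). A gene of the pairs had a median of 102 eligible genes at an r of at least 0.9 (range 1 to 485), against a median of 5 for eligible genes. The partner with the next ID number was therefore usually one of many. It was the closest of all eligible genes for both members in 21 pairs and for only 1 member in 11 pairs. The contrasts with eligible genes, in axis correlation and in number of partners, rest on the residuals that the rule used. The choice of the pairs therefore favours both, and by the rule every gene of the pairs has at least 1 partner. After the main axis was removed, 27 of the 111 pairs still had an r of at least 0.9, among 31 consecutive pairs that reached it. That was 0.680% of consecutive pairs, against 0.267% at a difference of 2, between 0.0271% and 0.158% at 3 to 10, and 0.0499% of all pairs. The median r of the 111 pairs was 0.93 before and 0.79 after the axis was removed.

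**Figure D2:**
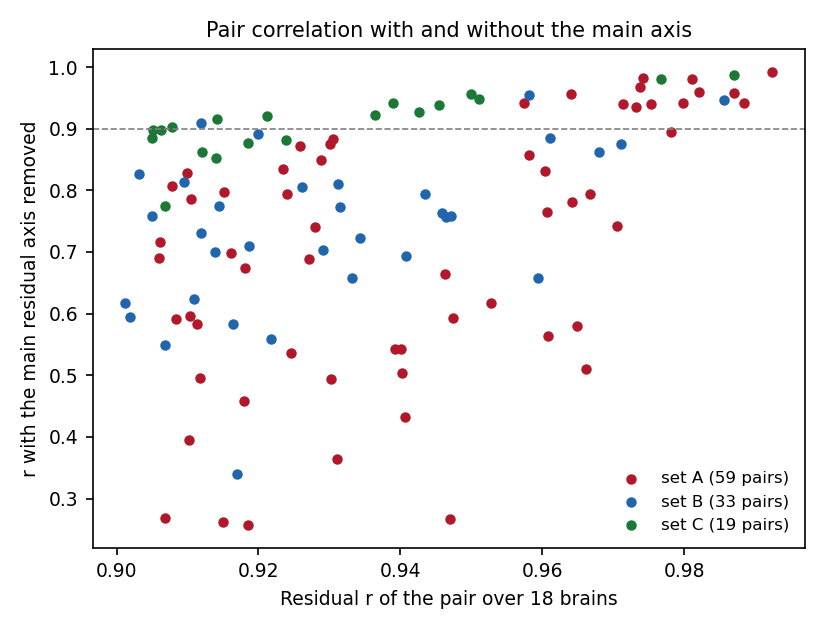
Residual r of each of the 111 pairs over 18 brains (x axis) against its r after the main residual axis was removed (y axis), coloured by the 3 sets described in the text. Set C, with few other partners, stays between 0.77 and 0.99, while sets A and B spread down to 0.26 and 0.34.

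The pairs were described in 3 sets, which were defined after their values had been seen. Pairs in which both genes had at most 10 partners at an r of at least 0.9 form set C, with 19 pairs and 37 genes. The other pairs were divided by the sign of their genes' correlation with the main axis into set A (negative sign), with 59 pairs and 116 genes, and set B (positive sign), with 33 pairs and 64 genes. Set A was high in both brains numbered 8 and low in a few others. Its mean residual was 0.82 in CrzR siRNA replicate 8 and 0.74 in GFP siRNA replicate 8 (log2 scale), and it was -0.89 in CrzR siRNA replicate 2, -0.73 in CrzR siRNA replicate 3, -1.19 in GFP siRNA replicate 4 and -0.66 in GFP siRNA replicate 3. Set B ran the other way, at -0.66 in CrzR siRNA replicate 8 and -0.34 in GFP siRNA replicate 8, and highest at 0.36 in CrzR siRNA replicate 2 and 0.37 in GFP siRNA replicate 2. The mean residuals of set C stayed between -0.23 and 0.37 in every brain, since its pairs followed different brains. Both siRNA groups held brains on either side of the axis, as they must, since the fit took out the mean of each group. The residuals therefore cannot show a group difference along the axis.

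**Figure D3:**
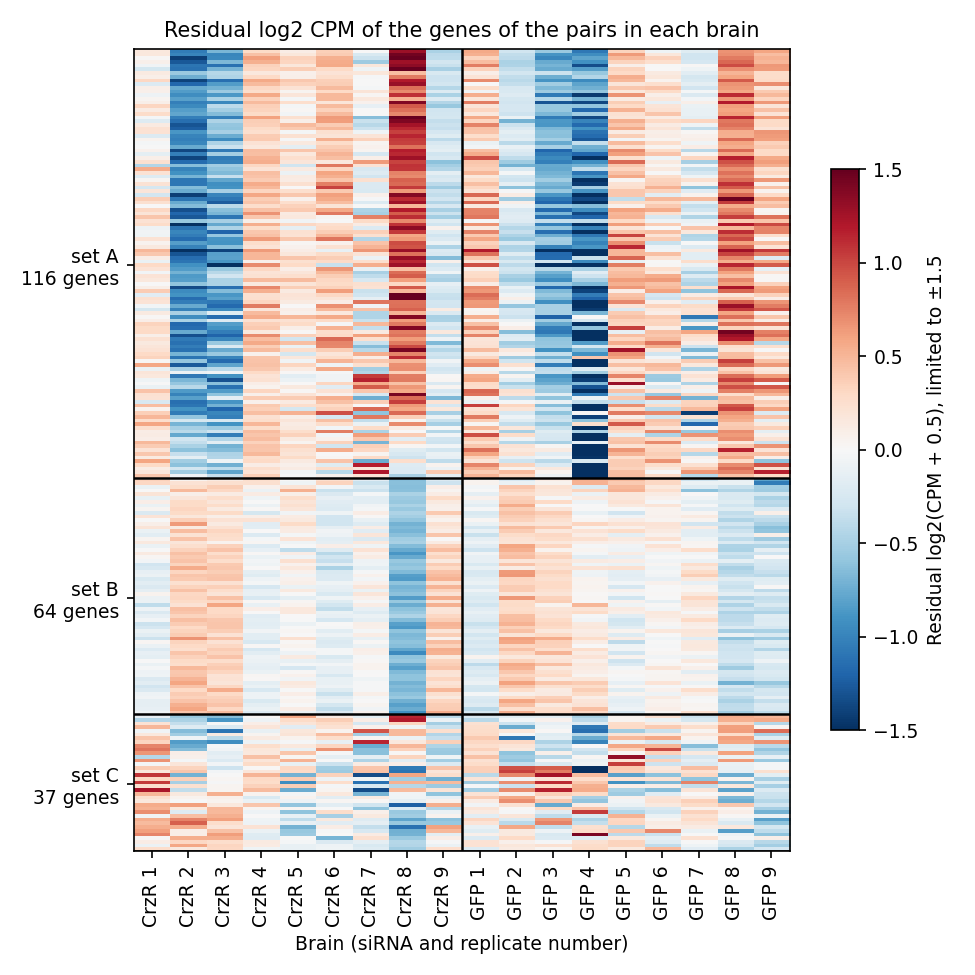
Residual log2(CPM + 0.5) of the 217 genes (rows, in sets A, B and C) in the 9 CrzR siRNA brains (left) and the 9 GFP siRNA brains (right), red above and blue below the fitted value. The columns of the brains numbered 8 are red in set A and blue in set B, and GFP siRNA replicate 4 is the darkest blue column of set A, with a mean residual of -1.19.

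A pair of brains carried a large part of the extreme values. GFP siRNA replicate 4 had the lowest CPM of the 18 brains in 87 of the 217 genes (40.1%), against 11.4% of eligible genes, and 83 of the 87 were in set A. In 32 genes (14.7%) its CPM was under 0.5 times that of the next lowest brain, against 115 eligible genes (1.57%), and both genes of 14 pairs were among the 32. CrzR siRNA replicate 8 had the highest CPM of all in 102 genes (47.0%) and the lowest in 61 (28.1%). Its shares among eligible genes were 27.3% and 26.4%, so its share of lowest values was near that of eligible genes. Of the genes highest in that brain 95 were in set A, and of the genes lowest in it 57 were in set B. A brain far off in both genes of a pair raises their Pearson r, so the rule itself favours genes with such a brain.

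The highest r of all, 0.992, belonged to Hsal_07701 and Hsal_07702 of set A, which were each other's closest partner. Hsal_07701 had a lowest, median and highest value of 61.0, 85.1 and 170.4 CPM in CrzR siRNA brains, against 3.22, 66.5 and 205 CPM in GFP siRNA brains. Hsal_07702 had 69.7, 83.5 and 126 CPM in CrzR siRNA brains, against 8.81, 66.8 and 149.5 CPM in GFP siRNA brains. The lowest value of both genes was that of GFP siRNA replicate 4 and the highest that of GFP siRNA replicate 8. The groups overlapped, with 3 GFP siRNA brains below the lowest CrzR siRNA brain for Hsal_07701 and 5 for Hsal_07702, and 1 above the highest for each gene. The ratio between the highest and lowest brain of Hsal_07701 was the largest of the 217 genes, at 63.6, where the median was 6.12 for the genes of the pairs and 3.16 for eligible genes. The CrzR siRNA brains alone gave an r of 0.976 and the GFP siRNA brains alone one of 0.996. It was 0.947 without GFP siRNA replicate 4 and 0.992 with the main axis removed.

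Hsal_11990 and Hsal_11991 (r = 0.981) and Hsal_11144 and Hsal_11145 (r = 0.971) stood out by the same brain. Hsal_11990 had 150.3, 330.4 and 640.2 CPM in CrzR siRNA brains as lowest, median and highest, against 17.9, 328 and 851 CPM in GFP siRNA brains. Hsal_11991 had 42.5, 68.1 and 161 CPM in CrzR siRNA brains, against 3.62, 56.7 and 85.5 CPM in GFP siRNA brains. In GFP siRNA replicate 4, Hsal_11990 lay 8.40 times and Hsal_11991 11.8 times below the next lowest of the 18 brains. Hsal_11145 had 13.4, 30.8 and 63.2 CPM in CrzR siRNA brains, against 1.12, 20.1 and 40.7 CPM in GFP siRNA brains, and lay 10.7 times below the next lowest brain there. Its partner Hsal_11144 had 54.9, 103 and 199 CPM in CrzR siRNA brains, against 11.0, 79.4 and 148 CPM in GFP siRNA brains. Without GFP siRNA replicate 4 the r of the first pair was 0.904 and that of the second 0.920, both still above 0.9.

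Several other pairs of set A had the same brains at their extremes. Hsal_04601 and Hsal_04602 had an r of 0.988, and leaving out any single brain left it at 0.982 or above. Hsal_04601 had 102, 280 and 653 CPM in CrzR siRNA brains as lowest, median and highest, against 32.6, 157 and 417 CPM in GFP siRNA brains. Hsal_04602 had 12.0, 35.2 and 99.99 CPM in CrzR siRNA brains, against 3.29, 28.9 and 62.0 CPM in GFP siRNA brains. In both genes CrzR siRNA replicate 2 was the lowest and CrzR siRNA replicate 8 the highest of their group, and GFP siRNA replicates 4 and 8 took the same places in theirs. The same 4 brains held these places in Hsal_05238 and Hsal_05239 (r = 0.987), Hsal_06178 and Hsal_06179 (r = 0.982) and Hsal_02381 and Hsal_02382 (r = 0.971). In GFP siRNA replicate 4, Hsal_05238 lay 4.52 times and Hsal_05239 5.49 times below the next lowest of the 18 brains, and Hsal_04602 lay 3.60 times below it. Hsal_06178 was the most abundant of these, with 294, 734 and 1280 CPM in CrzR siRNA brains, against 109.5, 542 and 896 CPM in GFP siRNA brains. Hsal_04013 and Hsal_04014 (r = 0.978) differed from them only in that CrzR siRNA replicate 3, not 2, was lowest for Hsal_04014.

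A further couple of abundant pairs of set A were spread differently. Hsal_02304 had 288, 801 and 1244 CPM in CrzR siRNA brains as lowest, median and highest, against 259.6, 667 and 1637 CPM in GFP siRNA brains. Hsal_02305 had 176, 517 and 999 CPM in CrzR siRNA brains, against 167, 549 and 1020 CPM in GFP siRNA brains. CrzR siRNA replicates 3 and 7 and GFP siRNA replicates 4 and 9 were the extremes of both genes, and their r was 0.975 with and 0.939 without the main axis. Hsal_06336 and Hsal_06337 (r = 0.966) depended on the axis, since their r without it was 0.51. Hsal_06337 reached 1792 CPM in CrzR siRNA replicate 8, where its CrzR siRNA median was 541 CPM, and its GFP siRNA median was 453 CPM. Hsal_07688 and Hsal_07689 (r = 0.980) were highest in the same brain. Hsal_07689 had 30.1, 60.4 and 242 CPM in CrzR siRNA brains, against 18.7, 44.1 and 82.1 CPM in GFP siRNA brains.

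In set B the swings were smaller and the brains numbered 8 were at the low end. Hsal_00860 and Hsal_00861 had the highest r of the set, 0.986, and were each other's closest partner. Hsal_00860 had 50.8, 146 and 228 CPM in CrzR siRNA brains as lowest, median and highest, against 86.4, 176 and 334 CPM in GFP siRNA brains. Hsal_00861 had 38.1, 95.3 and 170.1 CPM in CrzR siRNA brains, against 54.5, 119 and 214 CPM in GFP siRNA brains. Replicate 8 was the lowest brain of both groups for both genes, and the group ranges overlapped widely. The SD of their log2 ratio over the brains was 0.07, which is 1.62 times what counting alone gives. Hsal_07310 and Hsal_07311 (r = 0.947) and Hsal_05588 and Hsal_05589 (r = 0.961) were the most abundant pairs of the set. Hsal_07310 had 195, 589 and 1181 CPM in CrzR siRNA brains, against 378, 831 and 1198 CPM in GFP siRNA brains. Hsal_05588 had 155.5, 414 and 555 CPM in CrzR siRNA brains, against 214, 497 and 614 CPM in GFP siRNA brains. Replicate 8 was again the lowest of each group in all 4 of these genes.

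Set C, by its definition, held pairs with few other partners. The 2 members were each other's closest partner in 9 of its 19 pairs, against 10 of 59 in set A and 2 of 33 in set B, a difference that the limit on partners itself favours. Hsal_03798 and Hsal_03799 had an r of 0.987 that did not change when the main axis was removed. Hsal_03798 had 19.7, 57.3 and 96.3 CPM in CrzR siRNA brains as lowest, median and highest, against 7.83, 93.5 and 133 CPM in GFP siRNA brains. Hsal_03799 had 21.5, 74.6 and 123 CPM in CrzR siRNA brains, against 7.89, 103 and 131 CPM in GFP siRNA brains. CrzR siRNA replicate 8 and GFP siRNA replicate 4 were the low brains of both genes. Their gene models are 448 and 470 bases long, and their mean levels per length were 158 and 168 RPKM. Hsal_11472 and Hsal_11473 (r = 0.914) were the pair that depended most on 1 brain. Their r fell to 0.75 without GFP siRNA replicate 5, and the 9 CrzR siRNA brains alone gave 0.55, against 0.99 from the 9 GFP siRNA brains.

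Runs longer than a pair were few. In 5 places 3 consecutive genes were linked by 2 such pairs, and no run was longer. The r between the first and the last gene was 0.97 for Hsal_16640 to Hsal_16642, 0.92 for Hsal_07706 to Hsal_07708, 0.88 for Hsal_03433 to Hsal_03435, 0.87 for Hsal_06500 to Hsal_06502 and 0.83 for Hsal_04428 to Hsal_04430. Hsal_16640 to Hsal_16642 formed the only run in set C. Hsal_16640 had 25.7, 77.7 and 148 CPM in CrzR siRNA brains as lowest, median and highest, against 46.4, 81.8 and 190.2 CPM in GFP siRNA brains. Hsal_16641 had 51.7, 145 and 344 CPM in CrzR siRNA brains, against 94.7, 185 and 384 CPM in GFP siRNA brains. Hsal_16642, with a gene model of 203 bases, had 14.0, 35.3 and 114 CPM in CrzR siRNA brains, against 21.1, 91.4 and 179.8 CPM in GFP siRNA brains. CrzR siRNA replicates 7 and 1 were the lowest and highest of their group for all 3 genes, and GFP siRNA replicate 8 was the lowest of the other group. The runs of Hsal_03433 and Hsal_06500 were in set B and those of Hsal_04428 and Hsal_07706 in set A. No other stretch of 20 ID steps held as many genes of the pairs as Hsal_07688 to Hsal_07708, with 7 among 15 eligible genes. GFP siRNA replicate 4 was the lowest brain in 5 of those 15. Of the 111 pairs, 42 began within 20 numbers of another pair's start.

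**Figure D4:**
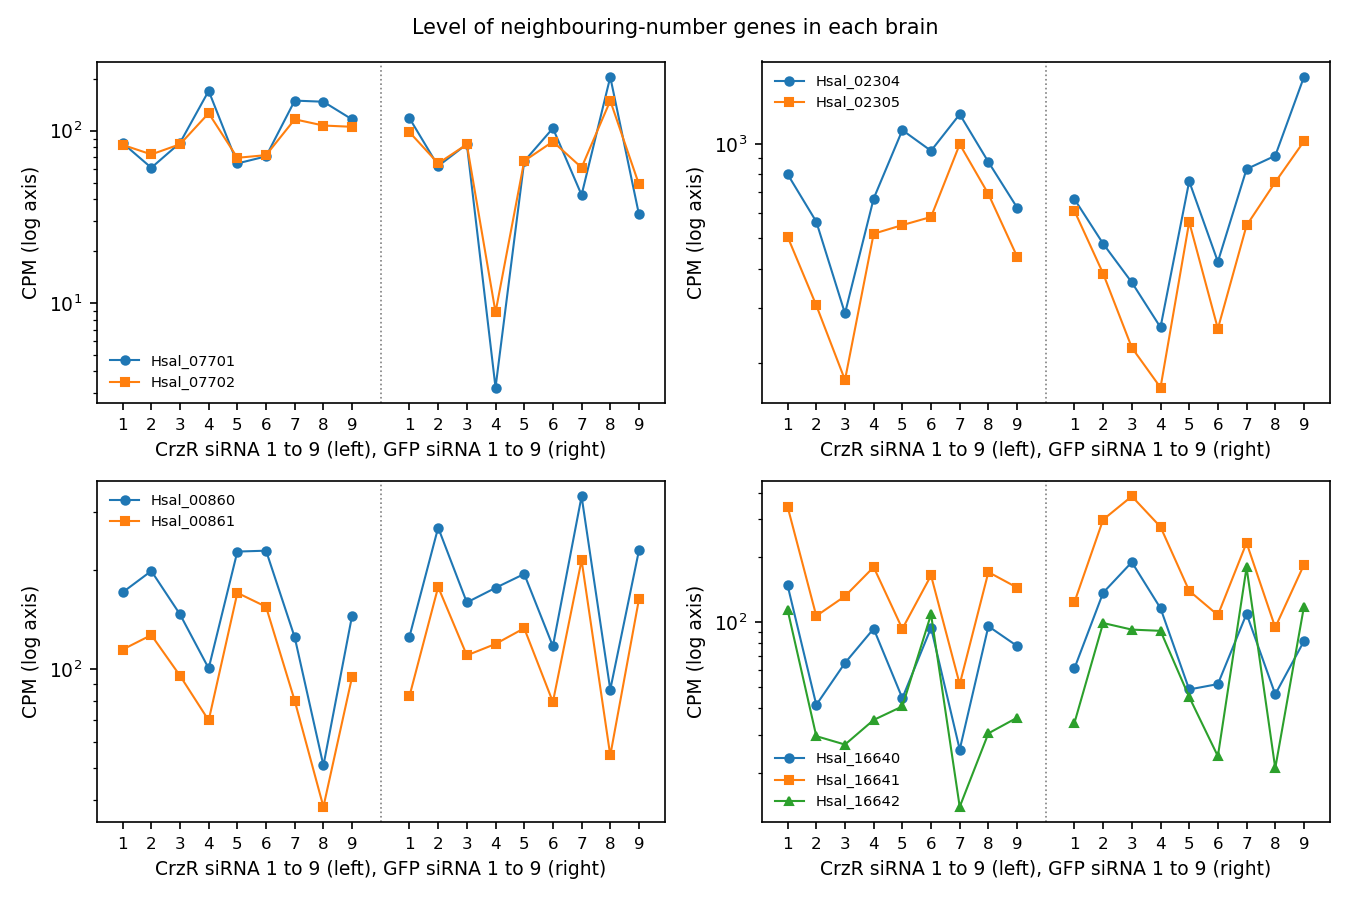
CPM on a log axis (y) in each brain (x, CrzR siRNA replicates 1 to 9 on the left, GFP siRNA replicates 1 to 9 on the right of each panel) for Hsal_07701 and Hsal_07702, Hsal_02304 and Hsal_02305, Hsal_00860 and Hsal_00861, and the run of Hsal_16640 to Hsal_16642. The lines of a panel turn at the same brains, and the drop of the first panel is GFP siRNA replicate 4, at 3.22 and 8.81 CPM.

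The 3 pairs just inside were Hsal_06275 and Hsal_06276 (r = 0.9012), Hsal_17701 and Hsal_17702 (r = 0.902) and Hsal_00069 and Hsal_00070 (r = 0.903). The 3 just outside were Hsal_01331 and Hsal_01332 (r = 0.89995), Hsal_03928 and Hsal_03929 (r = 0.8994) and Hsal_10608 and Hsal_10609 (r = 0.898). All 3 inside rested on CrzR siRNA replicate 8, without which their r was 0.79, 0.84 and 0.84 in the order given. Hsal_01331 and Hsal_01332 were each other's closest partner with 0 partners at 0.9, and their r was 0.77 without GFP siRNA replicate 5.

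Over all 111 pairs, Spearman's rho of the residuals had a median of 0.91, and it was at least 0.9 in 66 pairs. In 61 pairs r stayed at 0.9 or above whichever brain was left out, and in 8 it dropped under 0.85 without 1 brain. Within CrzR siRNA brains alone 99 pairs had an r of at least 0.9, within GFP siRNA brains alone 80, and in both 68. The same brain had the highest residual of both genes in 73 pairs and the lowest in 81. The SD of the log2 ratio of the 2 genes over brains had a median of 0.19, against a median SD of 0.50 for the residual of a single gene of the pairs and 0.30 for eligible genes. The ratio SD was 2.33 times what counting alone gives in the median pair, and under 2 times in 40 pairs. Choosing pairs by an r of at least 0.9 favours a small ratio SD, shared extreme brains and a high r within each group. These values therefore describe the chosen pairs and are no separate support for them.

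The sets also differed in gene model length, which the rule did not use, and in level, which it limited. Gene model length, recovered from the ratio of counts to deposited RPKM, had a median of 2570 bases in set A, 961.5 bases in set B and 1384 bases in set C, against 1973 bases over eligible genes. Length went with the axis among eligible genes as well. The median was 1184 bases in the 1798 genes that correlated with the axis at 0.7 or above and 4021 bases in the 1343 genes at -0.7 or below. The part of length in the shared variation of a pair was not tested here, beyond the count of 70 pairs (56 of them among the 111) at an r of at least 0.9 once each brain's trend over gene length had been removed, a step added after the data were seen. Median levels per length were 21.4 RPKM in set A, 112 RPKM in set B and 51.6 RPKM in set C, against 25.0 RPKM over eligible genes, with RPKM recomputed from counts, lengths and each brain's own sum. RPKM divides by length, so the differences in level and in length are not separate.

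**Figure D5:**
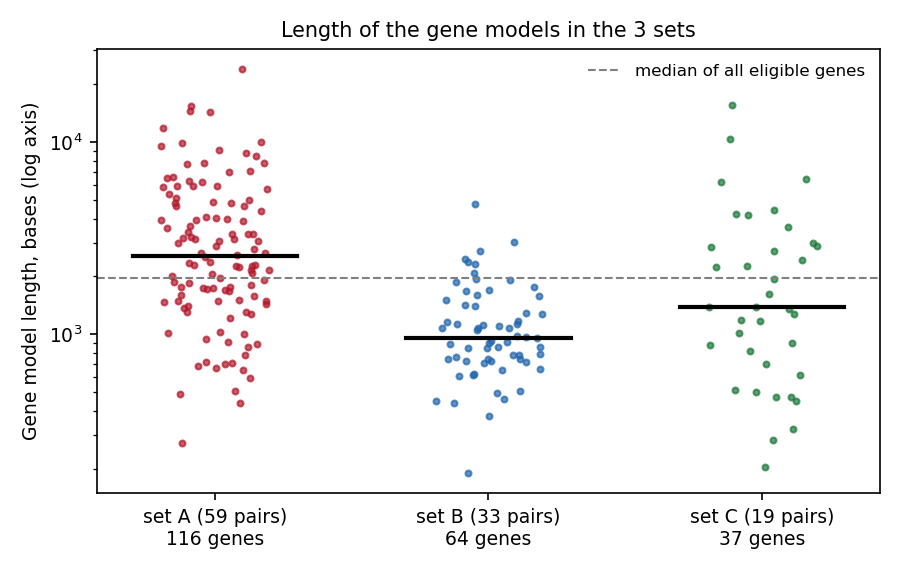
Length of the gene model in bases (y, log axis) of each gene of sets A, B and C (points), with black lines at the set medians of 2570, 961.5 and 1384 bases and a dashed line at 1973 bases, the median of eligible genes. Set B is the shortest and holds no gene model above 4778 bases.

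The levels of the genes of a pair were often alike. Mean RPKM differed by less than 2-fold in 65 of the 111 pairs (58.6%), against 1823 of the 4556 consecutive eligible pairs (40.0%), and the median absolute log2 ratio was 0.85 against 1.31. Level differed along the axis, with a median of 49.0 RPKM in eligible genes at 0.7 or above and 17.2 RPKM at -0.7 or below. Both genes of a pair in sets A and B lie on the same side of the axis, so the choice can favour like levels. In Hsal_08734 and Hsal_08735 of set B the means were 60.2 and 59.6 RPKM. In Hsal_04013 and Hsal_04014 of set A they were 18.1 and 18.9 RPKM. At the other end were Hsal_07530 and Hsal_07531 of set C, with 11.1 and 121 RPKM, a 10.9-fold difference. Next came Hsal_04693 and Hsal_04694 of set A, with 81.9 and 8.02 RPKM, and Hsal_17884 and Hsal_17885 of set B, with 457 and 46.4 RPKM.

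Group means were taken out before the pairs were correlated, so the difference between the siRNA groups could be tested. The choice was still not wholly free of the groups, since the limit on spread could be met in 1 group alone. Hsal_07701 and Hsal_11145, for example, met it only in CrzR siRNA brains, with GFP siRNA replicate 4 far below the rest. How many genes met it in only 1 group is not given here. With edgeR's quasi-likelihood test and Benjamini-Hochberg adjustment over all 10132 genes tested, 0 of the 217 genes passed an adjusted p of 0.05, and 0 of all genes did (0%). All 217 genes passed the filter of a mean of 1 RPKM, the lowest at 3.50 RPKM. DESeq2 called 0 of the 217 and 3 of all genes (0.0296%), and limma voom called 0 and 0. At an unadjusted p under 0.05 edgeR had 33 of the 217 (15.2%), 24 higher and 9 lower after CrzR siRNA, against 8.09% of all genes, with 4.68% higher and 3.41% lower. The 33 are not 33 separate observations, because the genes were chosen for varying together over the same brains. Without CrzR siRNA replicate 8 the number was 8 (3.69%), against 4.01% of all genes, and without GFP siRNA replicate 8 it was 84 (38.7%), against 20.3% of all genes. Without both brains numbered 8, an alternative added after the data were seen, it was 40 (18.4%), against 11.3% of all genes. The number moved with single brains, and that over all genes moved the same way. With library size alone in place of TMM scaling it was 34, with 33 higher and 1 lower, as that scaling moved the median of all genes from 0.0011 to 0.099 (log2).

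The direction of the unadjusted differences followed the sets. In set A the log2 fold change of CrzR over GFP siRNA had a median of 0.47 and was above 0 in 113 of 116 genes. In set B it had a median of -0.30 and was below 0 in 63 of 64, and in set C the median was -0.08, or 0.02 with library size alone as scaling. The median over all 10132 genes was 0.0011, with 5079 of them above 0. Sets A and B were each defined by the sign of 1 shared axis, so the signs within a set are not separate observations. The direction in other eligible genes on the same side of the axis is not given here. The set medians depended on single brains. Without CrzR siRNA replicate 8 that of set A was 0.22, with 102 of 116 genes above 0, and without GFP siRNA replicate 8 it was 0.64. In set B the medians without a single brain ran from -0.39 without GFP siRNA replicate 8 to -0.22 without CrzR siRNA replicate 8. Without both of these brains the median of set A was 0.41, with 111 of 116 genes above 0. That of set B was then -0.30, with 62 of 64 genes below 0. Both genes of a pair had the same sign in 105 pairs, which the choice of the pairs makes likely. No gene of the pairs passed the threshold of the adjusted test, so these directions are given as a description.

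The genes with the lowest p-values on either side are described by their IDs, 2 a side. Hsal_12261 averaged 23.0 ± 7.98 RPKM in CrzR siRNA brains and 13.7 ± 4.35 RPKM in GFP siRNA brains (± SD, n = 9 and 9), with a log2 difference of 0.67 (SE 0.21, edgeR adjusted p = 0.543). Its lowest, median and highest values were 28.6, 51.6 and 77.6 CPM in CrzR siRNA brains, against 16.9, 29.0 and 46.1 CPM in GFP siRNA brains, so the CrzR siRNA median lay above the highest GFP siRNA brain. Its pair partner Hsal_12262 of set C averaged 20.9 ± 7.46 RPKM in CrzR siRNA brains and 12.5 ± 6.58 RPKM in GFP siRNA brains (± SD, n = 9 and 9), with a log2 difference of 0.68 (SE 0.24, edgeR adjusted p = 0.543). Hsal_06500 averaged 241 ± 53.7 RPKM in CrzR siRNA brains and 298 ± 50.2 RPKM in GFP siRNA brains (± SD, n = 9 and 9), with a log2 difference of -0.42 (SE 0.15, edgeR adjusted p = 0.543). Hsal_09475 averaged 219 ± 63.7 RPKM in CrzR siRNA brains and 306 ± 97.6 RPKM in GFP siRNA brains (± SD, n = 9 and 9), with a log2 difference of -0.61 (SE 0.25, edgeR adjusted p = 0.543). None passed the threshold. The authors' deposited table gave adjusted p-values of 0.462 for Hsal_12261, 0.521 for Hsal_12262, 0.566 for Hsal_06500 and 0.617 for Hsal_09475. The authors' deposited table listed 0 of the 217 genes under an adjusted p of 0.05, and 4 of all its rows.

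The relation of each gene to library depth was also left out of the correlations behind the choice, because the residuals were taken after depth had been fitted. In a second edgeR fit with group and log2 gene-count sum as terms, 113 of the 217 genes (52.1%) changed with depth at an adjusted p under 0.05, against 57.5% of all 10132 genes. Of the 113, 56 were higher in deeper libraries, against 32.6% of all genes, and 57 were lower, against 24.9%. Over the 217 genes together the share was close to that of all genes, but it differed between the sets. In set A 43 genes were higher and 3 lower in deeper libraries (39.7% of the set called). In set B 2 were higher and 47 lower (76.6%), and in set C 11 were higher and 7 lower (48.6%), against 57.5% of all genes. The depth calls of other eligible genes on the same side of the axis are not given here, so these directions are not shown to be particular to the pairs. The median change per doubling of depth was 0.64 in set A, -0.67 in set B, 0.17 in set C and 0.14 over all genes (log2). With library size alone as scaling 126 genes were called, 81 of them higher. Without both brains numbered 8, an alternative added after the data were seen, 77 were called, of which 25 were higher and 52 lower. The median of set A was then 0.10, with 67 genes above 0 and 49 below. That of set B was -0.54, with 10 above 0 and 54 below, and that of set C was 0.12. The rise of set A with depth thus rested largely on the brains numbered 8. Depth goes with whatever else differed between the libraries, and these cannot be told apart.

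Both genes were called for depth in 41 of the 111 pairs (36.9%), with the same sign in all 41, 1 gene in 32 pairs (28.8%) and neither in 38 (34.2%). Among the 4553 consecutive eligible pairs with both genes tested, the shares were 43.2% with both called, 43.7% with 1 and 13.2% with neither. Among the genes that were higher in deeper libraries Hsal_11521 had the smallest p, with a log2 change of 1.13 per doubling of depth (SE 0.21, edgeR adjusted p = 6.96e-05). Its values were 41.1, 59.6 and 108 CPM in CrzR siRNA brains as lowest, median and highest, against 17.7, 39.1 and 90.5 CPM in GFP siRNA brains. Hsal_12297 followed, with a change of 1.06 (SE 0.22, edgeR adjusted p = 0.000167). Among the genes that were lower in deeper libraries, Hsal_07536 had a change of -1.78 (SE 0.18, edgeR adjusted p = 7.4e-07), and its pair partner Hsal_07535 also had -1.78 (SE 0.18). Hsal_07536 had 21.3, 58.9 and 128 CPM in CrzR siRNA brains, against 34.2, 88.1 and 178 CPM in GFP siRNA brains. Hsal_10801, with a gene model of 190 bases, had a change of -1.52 (SE 0.15, edgeR adjusted p = 7.4e-07), and its partner Hsal_10800, with 723 bases, -0.91 (SE 0.16, edgeR adjusted p = 0.000152). The members of that pair lay 1.92-fold apart in mean RPKM and shared replicate 8 as the lowest brain in both groups.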

How the data were processed

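Polyadenylated RNA of single brains was sequenced, and STAR 2.5.0b and DESeq2 are listed, with no role, in the submitters' processing notes. Which genome build, annotation and counter were used is not given in the sources used here. Per the file headers, a brain has 1 count column in the table of 19198 features. It holds raw whole reads with both runs of the brain added, and 0 columns were left out. Only rows with a plain gene ID were used as genes, and 769 rows of other RNA classes and 2 suffixed gene rows stayed out of sums and tests. The deposited RPKM columns divide odd and even rows by different library totals, between 0.176 and 1.23 times the brain's own, and all 111 pairs join an odd and an even row. They served to recover gene lengths, which came out whole within 5.82e-11 for 15941 genes, and RPKM was recomputed. From the authors' deposited comparison the log2 fold change, p-value, adjusted p-value and mean signal (173 to 12320) of the 217 genes were read.

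The planned tests were run with edgeR 4.0.16 in R 4.3.3 (quasi-likelihood F test, TMM scaling, two-sided, Benjamini-Hochberg) on genes with a mean of at least 1 RPKM. Standard errors come from limma 3.58.1 (voom), and DESeq2 1.42.0 was an alternative. The steps were run on simulated data, drawn as independent genes for the edgeR fits and as separate pairs for the residual r. Neither held an axis shared over all genes, so these runs checked the code and not the tests under such shared variation. The 2 genes of a pair share their brains, so no p is given over pairs or sets. The labels number 9 brains per siRNA and name each as a separate biological replicate. Members, sets and settings were chosen with earlier results of these data known. Pairs named are the 8 with the highest r, the 8 with the largest residual SD, the 4 most abundant, 4 runs, the 3 on either side of 0.9, the 3 with the largest and the 3 with the smallest difference in RPKM, and the 2 genes with the smallest p per direction of each test. The run of Hsal_16640 and the pair of Hsal_11472 were named after their values were seen.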

Additional observations from a re-analysis of the deposited data

Results flagged for a closer look

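The 62 genes of 33 named pairs gave 124 groups of 9 brains, and in 17 the lowest or highest brain stood apart by a gap of over 0.493 of the group's range. Chance marks about 1 in 20 groups, but that rate is no yardstick here, since the named pairs were chosen partly for a high r and a large residual SD, and the genes of a pair are not independent. In 11 of the 17 the brain was GFP siRNA replicate 4, at the low end. Its CPM was 7.83 for Hsal_03798 and 7.89 for Hsal_03799, 8.16 for Hsal_04429 and 13.2 for Hsal_04430, and 13.4 for Hsal_05239. It was 3.22 for Hsal_07701 and 8.81 for Hsal_07702, 11.0 for Hsal_11144 and 1.12 for Hsal_11145, and 17.9 for Hsal_11990 and 3.62 for Hsal_11991. The lowest of the other 8 GFP siRNA brains was between 12.0 CPM (Hsal_11145) and 206 CPM (Hsal_11990) for these genes. In 5 the brain was CrzR siRNA replicate 8, also at the low end. Its CPM was 19.7 for Hsal_03798, 156 for Hsal_05588, 23.2 for Hsal_06276, 63.7 for Hsal_06502 and 17.6 for Hsal_08734. The remaining one was Hsal_11991 in CrzR siRNA replicate 7, at 161 CPM against 42.5 to 77.7 CPM in the remaining 8 CrzR siRNA brains. No cause was tested.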

How the results depend on the processing

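The count of 111 consecutive pairs became 259 without the depth term (86 of the 111 shared), 31 with the main residual axis removed (27 shared), 0 on the deposited RPKM columns, whose divisors alternate by row, 238 at an r of 0.85 and 33 at 0.95. Steps added after the data were seen gave 63 without both brains numbered 8 (55 shared) and 70 with length trends removed (56 shared). Leaving out single brains gave 81 (without CrzR siRNA replicate 8) to 139. The cause of these shifts was not tested, other than that thresholds nest and that the odd and even rows of a pair have different divisors. Spearman's rho (79), TMM scaling (101), pseudocounts of 0.1 (111) and 2 (113), other level limits (88 to 123), keeping the highest genes (115) and dropping the limit on spread (117) stayed within 1.5 times. The siRNA test called 0 of all genes, 3 with DESeq2 and 0 to 2 without single brains (2 without CrzR siRNA replicate 5, and 2 without GFP siRNA replicate 8), and 0 to 0 of the 217 genes. The depth test called 5824 of all genes (5170 to 5840 without single brains) and 113 of the 217 (88 to 116).

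Replicate numbers were not shown to pair the brains. Same-numbered brains had correlations of their deviations from -0.55 to 0.75, with 3 of 9 over 0.1. The highest was that of the brains numbered 8. Which housing group of ants a brain came from is not given in the sources used here, so no fit could include it. With the replicate block 97 pairs reached 0.9 (61 of the 111 shared). The block gave 0 siRNA calls, and for depth 4769 of all genes and 87 of the 217 genes. At an unadjusted p under 0.05 the siRNA test had 55 of the 217 with the block (25.3%, against 12.1% of all genes), 41 higher and 14 lower. With depth as a covariate it had 79 (36.4%, against 27.5% of all genes), 38 higher and 41 lower. The planned test had 33 (15.2%, against 8.09%), 24 higher and 9 lower. Counting sets the floor for the weakest members, whose lowest count in any brain was 15.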
